A study of Caenorhabditis elegans with 2 samples.

Results

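Of 6626 reproducible peaks of the tagged nuclear hormone receptor NHR-129 in Caenorhabditis elegans larvae, 880 were start-proximal promoter peaks of 1 strand on the autosomes. A peak entered this set by position alone. Its summit lay on an autosome, between 1000 bp before and 100 bp after coding gene starts that were all on the same strand, and at most 250 bp from the nearest of those starts. For 850 of the 880 peaks 1 gene start was in reach, and for 30 there were 2. The 880 peaks were nearest to 876 distinct genes, 5.08% of the 17242 autosomal coding genes. Beside them, 829 autosomal peaks lay in promoter windows of 1 strand but farther than 250 bp upstream, 724 lay in windows of both strands between or near divergent genes, 523 were promoter peaks on X, and 3670 lay in no promoter window.

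The chromatin came from whole L2 larvae of strain OP339, collected as 1 group of 2 biological replicates with both sexes pooled. The strain carries unc-119(ed3) on chromosome III and the integrated array wgIs339, from which NHR-129 is made as a fusion with eGFP. Every sample carried both, and no untagged strain is part of the design, so peaks that need the fusion and peaks that do not cannot be told apart. Library fragments measured 150 to 350 bp, and sequencing depth was not given in the sources used here. For the antibody the labels name the receptor. With 1 group there is no contrast of conditions. The question open to the data is where these peaks lie, how the replicates agree on them, and which genes and sequences they mark.

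NHR-129 belongs to the nuclear hormone receptors, zinc-finger proteins that bind DNA and that form a very large family in nematodes. A promoter is the stretch next to a gene's start where RNA polymerase and transcription factors assemble. In this worm the annotated start of a transcript is often not the place where RNA polymerase began. For many genes the first stretch of the primary transcript, the outron, is removed when a short spliced leader RNA is joined to an acceptor site, so the annotated start can be the splice site and the promoter can lie farther upstream. The usual letters of that acceptor are TTTCAG.

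The windows that reach 50 bp to each side of the summit are shown for the 6 strongest members on chromosomes II to V whose window touches no annotated exon, as examples of members with high signal. All sequences printed here are limited to those chromosomes and to stretches outside annotated exons, so stronger members can be missing from each list. They are written 5′ to 3′ on the gene's strand from the WBcel235 reference, the assembly also called ce11. Capitals mark matches, on either strand, to a GA repeat (GAGAGA), to the 6-base motif CGTCTC, or to the 8-base element AGACGCAG.
Y58A7A.3 (chrV:5081080-5081180, minus strand): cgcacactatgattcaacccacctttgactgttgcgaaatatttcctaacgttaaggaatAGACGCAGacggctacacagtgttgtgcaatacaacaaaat
cdc-48.1 (chrII:10563510-10563610, minus strand): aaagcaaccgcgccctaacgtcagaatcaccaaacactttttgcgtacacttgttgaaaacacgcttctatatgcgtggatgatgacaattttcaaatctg
his-37 (chrV:9546974-9547074, plus strand): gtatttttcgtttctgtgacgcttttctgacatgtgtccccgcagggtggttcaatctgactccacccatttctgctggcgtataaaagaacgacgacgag
C35A5.6 (chrV:10509002-10509102, plus strand): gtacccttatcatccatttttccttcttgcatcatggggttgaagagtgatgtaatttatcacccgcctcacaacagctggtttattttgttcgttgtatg
gex-3 (chrIV:12404280-12404380, plus strand): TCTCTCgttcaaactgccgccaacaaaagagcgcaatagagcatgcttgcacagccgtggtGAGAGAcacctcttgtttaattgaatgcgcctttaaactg
F17C11.11 (chrV:10938839-10938939, minus strand): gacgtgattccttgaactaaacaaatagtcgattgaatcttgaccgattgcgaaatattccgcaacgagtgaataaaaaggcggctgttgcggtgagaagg

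Y58A7A.3, annotated by RefSeq as an IBR domain protein, held an 8-base element in its window, and gex-3, a subunit of the actin-regulating WAVE complex, held GA repeats. The other windows shown, at cdc-48.1, his-37, C35A5.6 and F17C11.11, held none of the 3. The 8-base element was the 8-letter word with the largest excess at member summits over their flanks among 24727 words seen, so its excess is a description of how it was chosen. It is shown in 8 members, taken in order of signal under the same limits, with the element in capitals and 12 bases of context on its left.
Y58A7A.3 (chrV:5081101-5081132, minus strand): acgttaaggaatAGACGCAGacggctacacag
fbxa-63 (chrIII:1243374-1243405, plus strand): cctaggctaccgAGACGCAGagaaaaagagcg
sec-61.G (chrV:10897342-10897373, minus strand): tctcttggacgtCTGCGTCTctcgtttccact
nhr-58 (chrV:532185-532216, plus strand): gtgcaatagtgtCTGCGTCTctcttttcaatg
Y39B6A.43 (chrV:18967841-18967872, minus strand): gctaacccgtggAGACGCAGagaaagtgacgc
ntl-11 (chrIV:15471602-15471633, minus strand): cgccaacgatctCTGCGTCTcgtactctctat
jun-1 (chrII:9113031-9113062, plus strand): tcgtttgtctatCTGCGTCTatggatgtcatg
hmg-1.2 (chrIII:6280301-6280332, plus strand): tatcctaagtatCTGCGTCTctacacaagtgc

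In this list sec-61.G codes for the gamma subunit of the protein translocation channel of the endoplasmic reticulum, nhr-58 for another nuclear receptor, jun-1 for an AP-1 transcription factor, ntl-11 for a subunit of the CCR4-NOT deadenylase complex, and hmg-1.2 for a high mobility group protein. The element stood in both orientations. It read AGACGCAG on the gene's strand in 41 members and CTGCGTCT in 79, with 3 members in both counts.

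The 20 bases directly before the annotated start are shown for members that have TTTCAG there, in capitals, again in order of signal under these limits.
Y58A7A.3 (chrV:5080904-5080923, minus strand): aagaaaaattacatTTTCAG
dld-1 (chrIV:14464497-14464516, plus strand): ctaattcgatttatTTTCAG
gex-3 (chrIV:12404411-12404430, plus strand): attttctctccaatTTTCAG
sec-61.G (chrV:10897144-10897163, minus strand): actcatttataaatTTTCAG
riok-3 (chrIII:9805012-9805031, minus strand): ttgatttaatttcgTTTCAG
sqrd-1 (chrIV:14219851-14219870, plus strand): ttcgcctcgtactaTTTCAG

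For contrast, the following 20-base stretches precede the starts of members without TTTCAG whose summit lay at most 50 bp before the start, or after it, in order of signal under the same limits.
C37H5.13 (chrV:4862966-4862985, minus strand): tcatttctatcgtttcgact
pqn-51 (chrV:5049587-5049606, plus strand): aaccgctatagttcattcag
xbp-1 (chrIII:4193789-4193808, plus strand): gtctcatttctctctccgtc
Y39B6A.43 (chrV:18967830-18967849, minus strand): aagtgacgcaaaagtggacg
F17C11.4 (chrV:10951840-10951859, plus strand): tgataagttcggggcatcac
cyp-33C8 (chrV:3803543-3803562, minus strand): ttttcgtattttgtggtttc

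Among the first list, the summits of Y58A7A.3, dld-1, gex-3 and sec-61.G lay more than 100 bp upstream of the start, that of riok-3, a RIO-type kinase, lay 86 bp upstream, and that of sqrd-1, a sulfide:quinone oxidoreductase, 28 bp upstream. The second list includes C37H5.13, annotated as an acyl-CoA thioesterase, xbp-1, the transcription factor of the unfolded protein response, and cyp-33C8, a cytochrome P450. In it the stretch before pqn-51 ends in AG without the full acceptor.

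The signal of a peak is a score of the authors whose scale is unknown. By median, members had a higher signal in the pooled list than in either replicate. The 880 members had a median pooled signal of 127, with a 95% order-statistic interval of 120 to 134, quartiles of 86.3 and 188, and a range of 63.6 to 3017. In replicate 1 their median was 70.4 (67.1 to 75.3) and in replicate 2 it was 57.2 (53.5 to 60.5). The deposited −log10 q was 4.15 for every member and could not order them.

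The strongest member was at Y58A7A.3 (peak chrV:5080933-5081346), with signals of 1716 in replicate 1 and 1310 in replicate 2. It had rank 3 among all thresholded peaks, and its summit lay between genes, 227 bp upstream of the start. F44E7.5 (chrV:5780637-5781083), an F-box gene, came next with 1428 and 1116, and its summit lay 46 bp downstream of the start, in the 5′ UTR. That interval also covers the start of the non-coding gene F44E7.13, which is on the other strand.

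The gene dld-1 (chrIV:14464096-14464458) codes for dihydrolipoyl dehydrogenase, the shared E3 subunit of the 2-oxoacid dehydrogenase complexes. Its peak had signals of 687 in replicate 1 and 730 in replicate 2, and it was the only 1 of the 5 strongest members with the higher value in replicate 2. The summit lay 239 bp upstream of the dld-1 start, inside the exon of a non-coding gene, LLC1.120. The peak at F55H12.7 (chrI:8865397-8865936), annotated as an uncharacterized protein, had 797 and 539. The peak at cdc-48.1 (chrII:10563418-10563735), an AAA ATPase that extracts ubiquitinated proteins, had 701 in replicate 1 and 557 in replicate 2.

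The other 15 of the 20 strongest members had pooled signals of 641 to 925. Several sat at genes of the basic machinery of the cell. The histone H4 gene his-37 had signals of 483 in replicate 1 and 459 in replicate 2. At sec-61.G the values were 392 and 354. The gene cox-5B, a subunit of cytochrome c oxidase, had 407 and 320. For bag-1, a co-chaperone of Hsp70, they were 372 and 285. The gene cdk-7, a kinase of the general transcription factor TFIIH, had 340 and 305. At wdr-23, a substrate receptor of the CUL4 ubiquitin ligase, they were 402 and 259, the widest gap in rank among the 20 strongest members (92 places).

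Among the same 20 members, the F-box genes fbxa-63 and fbxa-37 on chromosome III, with pooled signals of 771 and 712, belong to a large family of similar genes, and the labels do not say how reads that match several copies were counted, so these values are uncertain. The remaining genes were C35A5.6, gex-3, F17C11.11, E03H4.8, which codes for a protein with a coatomer-type propeller, scpl-3, a CTD phosphatase-like gene, F56C9.10 and eelo-2, a gene for a predicted M3 peptidase, with pooled signals of 656 to 902. In all 20 except dld-1 and scpl-3, replicate 1 had the higher signal.

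A call was present in both replicate lists for 874 of the 880 members, 99.3% (Wilson interval 98.5 to 99.7%). The share over all thresholded peaks was 99.5%, and the lists were used in selecting the peaks, so this share says little about the members. Replicate 1 had a call at 879 members and replicate 2 at 875. Over the 874 members with both, Spearman's rho of the signals was 0.83 and Pearson's r on the log2 scale 0.87, given as a description, since all points come from the same pair of libraries. Replicate 1 was higher at 682 of them, with a median log2 ratio of 0.33 and an SD of 0.47. The replicates' summits were a median of 18 bp apart at members (interval 16 to 21), against 18 bp at upstream peaks (16 to 20), 21 bp at promoter peaks on X, 13 bp at peaks in windows of both strands and 25 bp at peaks in no promoter window.

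**Figure D1:**
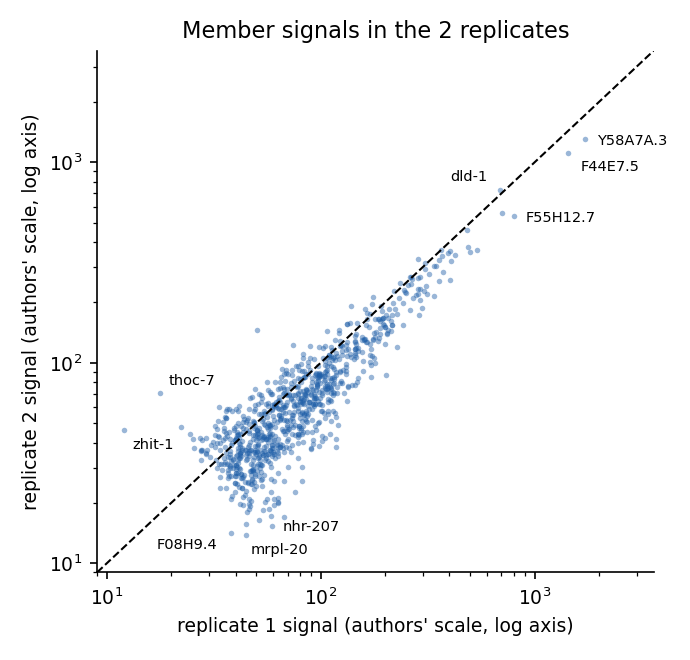
Signal of each of the 874 members with a call in both replicates, replicate 1 on the x axis and replicate 2 on the y axis, both on log axes in the authors' units, with a dashed line of equal values. Most points lie below the line, and the labelled genes at the low end are the 5 with the largest difference in rank.

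By rank, the replicates disagreed most at weak members, where neighbouring ranks differ little in signal. For zhit-1, a HIT-type zinc finger gene, the signal was 12 in replicate 1 and 46.1 in replicate 2. The gene thoc-7, a subunit of the THO complex of mRNA export, had 17.7 and 70.7. In the other direction stood mrpl-20, a mitochondrial ribosomal protein gene, with 44.9 and 13.8. The receptor gene nhr-207 had 59.2 in replicate 1 and 15.3 in replicate 2, and F08H9.4, a small heat shock protein gene, 38.1 and 14.2. Pooled signals of these 5 ran between 63.6 and 85.4, at the lower end of the set. The C-type lectin gene clec-126, named after its values were seen, had 50.1 in replicate 1 and 146 in replicate 2. Its pooled signal, 97.0, was below its replicate 2 value. Replicate values come from the strongest call that overlaps the peak by 1 bp, so the 146 may belong to a neighbouring call. This was not tested, and the gap cannot be read as disagreement of the replicates.

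Among the weakest members were F08H9.4 and denn-4, a DENN domain gene, both at a pooled signal of 63.6. Members of low signal had summits closer to the start and a lower GC content. Among the 176 weakest members the median summit position was 81 bp upstream and the median GC content 41.6%, while among the 176 strongest it was 137 bp upstream and 46.5%. In the weakest group 32 summits lay at or beyond the start, and in the strongest group 11. These differences were not tested.

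Set beside the other classes, members had a median signal above that of peaks in no promoter window and below those of the other promoter classes. Their median of 127 in the pooled list stood beside 128 for 1-strand peaks farther upstream, 144 for peaks in windows of both strands, 135 for promoter peaks on X and 114 for peaks in no promoter window. The members' interval of 120 to 134 overlapped that of the upstream peaks (123 to 136) and of the X promoters (126 to 146), but not those of the peaks in windows of both strands (135 to 150) or in no promoter window (110.7 to 116). In replicate 1 the members' median of 70.4 stood above 66.2 for peaks in no promoter window, and in replicate 2 it was 57.2 against 53.4. Against the peaks in windows of both strands the medians were 70.4 and 78.4 in replicate 1, and 57.2 and 67.4 in replicate 2. These orders were the same in each replicate, and no test of the differences was made, because peaks are not replicates.

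**Figure D2:**
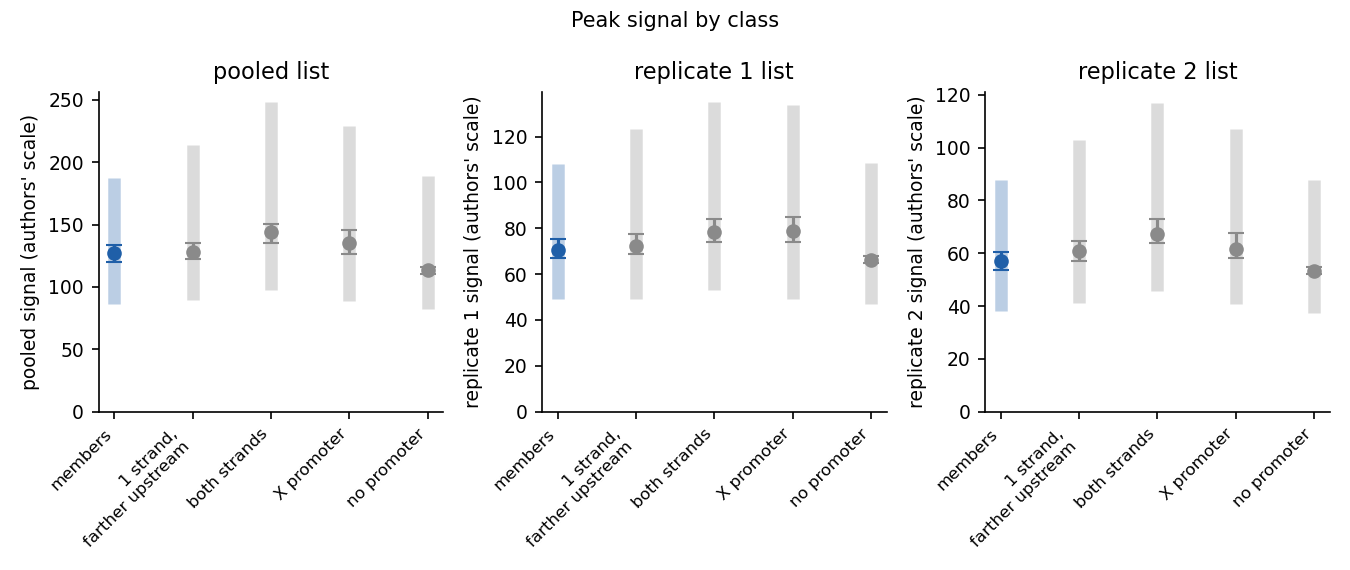
Median signal (points) with its 95% order-statistic interval (error bars) and the quartiles (pale bars) for members and the other 4 classes, in the pooled list, replicate 1 and replicate 2, in the authors' units. The median of members sits between those of peaks in no promoter window and of peaks in windows of both strands in all 3 lists.

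The median summit lay 119 bp upstream of the annotated start (interval 112 to 124), with quartiles at 171 and 48 bp upstream. In 777 members (88.3%, 86.0 to 90.3%) the summit was upstream, and in 103 it was at or downstream of the start. Within 100 bp of the start lay 382 summits, 43.4%. The replicates' own summits gave medians of 120 bp upstream in replicate 1 and 119 bp upstream in replicate 2. These positions are a description, since the rule selected on them. It admits 250 bp upstream but only 100 bp downstream, so that 71.2% of the positions it admits are upstream, and the upstream share moved with the limit, from 82.1% at 150 bp to 90.7% at 350 bp.

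By annotation 676 summits (76.8%) lay between genes, 85 in a 5′ UTR, 58 in an intron, 31 in an exon of a non-coding or other gene, 21 in a coding exon and 9 in a 3′ UTR. Just inside the limit, at 250 and 249 bp upstream, stood hmg-1.1, a high mobility group gene, with a pooled signal of 448, cmk-1, a calmodulin-dependent kinase gene, with 210, and phm-2 with 151. Just outside it, at 251 and 252 bp upstream, stood ndx-6, a predicted nudix hydrolase gene, with 354, snap-1 with 180 and fzo-1, a mitochondrial fusion GTPase, with 65.4. The summits farthest downstream belonged to nhr-8, a receptor of xenobiotic and cholesterol responses, and to F55C7.2, both at 98 bp, and to exo-1, an exonuclease of DNA repair, at 97 bp.

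The acceptor letters were unevenly spread with distance. TTTCAG stood directly before the annotated start of 158 members, 17.96% (15.6 to 20.6%), against 12.3% of all 17242 autosomal coding genes and 10.02% of those with no promoter peak. For the nearest starts of peaks in windows of both strands the share was 17.7%, close to that of members. Where the summit lay at most 50 bp before the start, or after it, 6 of 223 members had the acceptor, 2.69% (1.24 to 5.74%). With the summit 51 to 100 bp upstream it was 14 of 159, 8.81% (5.32 to 14.2%). With the summit more than 100 bp upstream it was 138 of 498, 27.7% (24.0 to 31.8%), a share whose interval does not meet the other 2. The limits of these distance classes were chosen after the values were seen.

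The step between the classes was present in each replicate. By replicate 1's own summits the shares were 3.15%, 9.94% and 27.02%, and by replicate 2's they were 2.34%, 10% (15 of 150) and 27.01%. Beyond the 250 bp limit the acceptor share was 33.6% for peaks up to 350 bp upstream and 22.4% for those more than 750 bp upstream. For the 829 upstream peaks together it was 28.3%. The shorter pattern AG directly before the start, the invariant end of any splice acceptor, followed the same order, at 11.2%, 19.5% and 53.8% of members from near to far. In the stretches printed above, xbp-1, with its summit 33 bp upstream, has no acceptor, and dld-1, with its summit 239 bp upstream, has it.

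**Figure D3:**
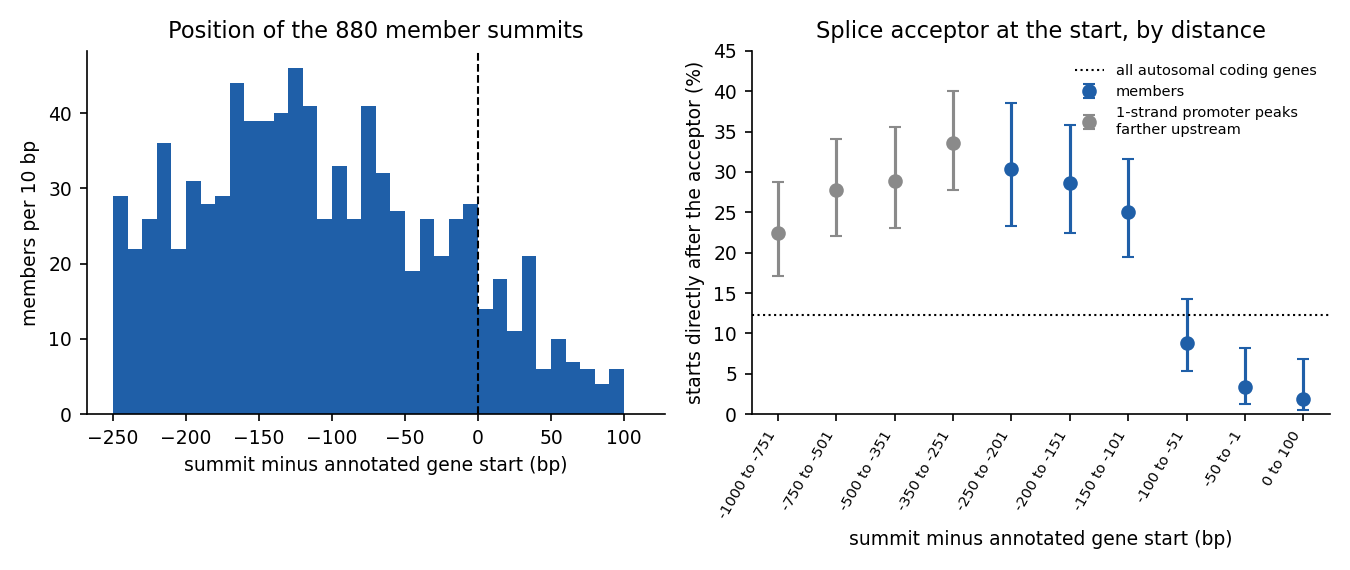
Left, members per 10 bp of distance between summit and annotated start, with the start dashed. Right, percent of starts directly after the trans-splice acceptor letters by distance class, with 95% Wilson intervals, for members and for 1-strand promoter peaks farther upstream, beside the 12.3% of all autosomal coding genes (dotted). The share lies at 25 to 30.4% in the 3 member classes beyond 100 bp upstream and at 1.94 to 8.81% in the 3 classes nearer to the start.

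Signals of members with and without the acceptor overlapped. Members with it had a median pooled signal of 118 (108 to 138) and members without it 128 (121 to 137). In replicate 1 the medians were 68.4 with and 71.0 without the acceptor, and in replicate 2 they were 55.3 with and 57.6 without. Few members started at their ATG, which marks a gene model with no annotated leader: 69 of 876 member genes (7.88%, 6.27 to 9.85%), against 24.7% of all autosomal coding genes. Counted by peak, the share was 7.95% for members, 11.1% for upstream peaks and 8.43% for peaks in windows of both strands.

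The nearest upstream coding gene was on the same strand for 546 members (62.0%), against 58.5% of the upstream peaks and 54.4% of all autosomal coding genes. It was within 1000 bp for 356 members (40.5%), against 30.9% of the upstream peaks and 49.4% of all those genes. It was both on the same strand and within 500 bp for 243 members, 27.6% (24.8 to 30.7%), against 10.01% (8.15 to 12.2%) of the upstream peaks and 19.4% of all autosomal coding genes. The rule bears on these comparisons, since it leaves out windows that hold starts of both strands, and a summit over 250 bp upstream needs more room before the gene. Another thresholded peak lay in the promoter window of the same gene for 71 members (8.07%), against 14.2% of the upstream peaks. A tRNA gene started within 250 bp of 9 member summits and a snoRNA gene within 250 bp of 10.

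Members were found on all 5 autosomes, with 198 on chromosome V, 183 on chromosome I, 176 on IV, 165 on II and 158 on III. As a share of coding genes, member genes made up 6.32% on chromosome I and 3.94% on chromosome V, with the others between. Of the members, 43.8% (40.5 to 47.0%) lay in the middle section of their chromosome, when each is divided into 3 equal parts, against 43.3% of all thresholded peaks, 53.4% of the upstream peaks, 46.8% of peaks in windows of both strands and 38.1% of all autosomal coding gene starts.

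The sequence under the summits was rich in G and C and in a few short words. Median GC content within 50 bp of the summit was 44.6% (43.6 to 44.6%), against 35.1% (34.7 to 35.6%) in the members' own flanks 400 bp away. The same value was 45.5% for upstream peaks, 46.5% for peaks in windows of both strands, 47.5% for promoter peaks on X and 44.6% for peaks in no promoter window, the same as for members. The part of GC content in the motif shares that follow was not tested.

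The GA repeat GAGAGA was found, on either strand, in 244 members, 27.7% (24.9 to 30.8%). It was in 4.77% of the flank windows and in 9.08% of all autosomal promoters in a window of the same length, 150 to 50 bp before the start. The share was 29.8% at upstream peaks, 17.5% at peaks in windows of both strands, 30.02% at promoter peaks on X and 32.1% at peaks in no promoter window. On the gene's strand it read GAGAGA in 93 members and TCTCTC in 167, with 16 in both counts.

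The 6 letters CGTCTC were in 187 members, 21.2% (18.7 to 24.1%), against 3.07% of flank windows and 4.09% of all promoters. Their share was 20.4% at upstream peaks, 13.4% at peaks in windows of both strands, 14.5% at promoter peaks on X and 16.1% at peaks in no promoter window. They read CGTCTC on the gene's strand in 119 members and GAGACG in 71. The 8-base element was in 117 members, 13.3% (11.2 to 15.7%), against 5 of 1760 flank windows (0.284%) and 1.64% of all promoters. At upstream peaks its share was 11.5%, at peaks in windows of both strands 6.91%, at promoter peaks on X 7.46% and at peaks in no promoter window 8.50%. The 3 elements share letters and often stood together, since 86.3% of the 117 members with the 8-base element also held CGTCTC, and 58 also held a GA repeat. At least 1 of the 3 was in 346 members, 39.3%. The sequences of fbxa-63, sec-61.G and nhr-58 shown above are examples of the 8-base element.

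The intervals of median signal overlapped between members with and without each element. With the GA repeat the median pooled signal was 123 (110.9 to 137), and without it 128.8 (119 to 139). For CGTCTC it was 122 with and 128 without, and for the 8-base element 129.4 with and 126 without. The median match lay 16.5 bp from the summit for the 8-base element, 20.5 bp for CGTCTC and 21.5 bp for the GA repeat. Only matches in the window of 50 bp to each side were counted. That window bounds these distances, so they do not by themselves measure closeness to the summit.

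**Figure D4:**
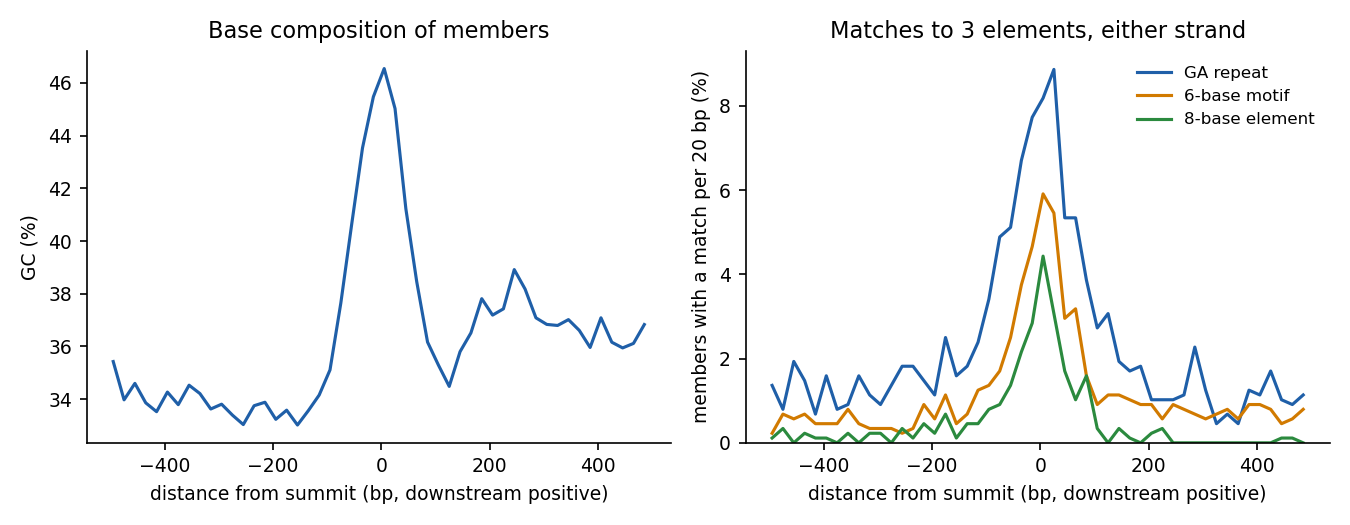
GC content of the members (left) and percent of members with a match to a GA repeat, the 6-base motif or the 8-base element (right), per 20 bp of distance from the summit, on the gene's strand. GC reaches 46.5% at the summit, and all 3 elements are most frequent within 50 bp of it.

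Beyond these, the 20 motifs searched on both strands included the E-box CACGTG and the wider form CANNTG, the nuclear receptor half-site AGGTCA with its variants AGTTCA and also AGTGCA, the GATA site TGATAA, the DAF-16 element GTAAACA, the AP-1 site TGACTCA, the CRE TGACGTCA, the C/EBP-type TTNCNNAA, the GC box GGGCGG, the CCAAT box, the TATA box TATAAA, the heat shock element GAANNTTC, a block of T, the BLMP-1-type motif, the X-box-like GTTNCC and the acceptor TTTCAG. At member summits 12 of the 20 were more frequent than in flanks and 8 less frequent, with intervals that did not overlap for 7 and 5 of them. The GA repeat and CGTCTC had the largest ratios to the flanks and were singled out for that. The half-site AGGTCA was in 3.30% of members (2.30 to 4.69%) and 2.05% of flank windows, and in 3.39% of all promoters. AGTGCA was in 5.45% of members and 3.01% of flank windows, while AGTTCA was in 4.43% of members and 7.10% of flank windows. The E-box CACGTG was in 3.75% of members, 1.36% of flank windows and 6.05% of peaks in no promoter window. TATAAA was less frequent at member summits (4.77%) than in flanks (11.9%) or in all promoters (14.4%), and so was TTTCAG, at 6.82% against 23.8% and 14.2%. The other peak classes were alike, with TATAAA in 3.59 to 4.46%, TTTCAG in 3.98 to 6.91% and AGTGCA in 5.23 to 8.80%. Member summits lay at most 250 bp upstream, so the flank on the downstream side lay past the start, and its part in these shares was not tested.

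Over the genes, 876 of 17242 autosomal coding genes were the nearest to a member, 5.08%, and 18% had any thresholded summit in the promoter window, members included. Gene lists were defined by name. Of 38 lists 28 had a share of member genes above 5.08%, with Wilson intervals wholly above it for 17 and wholly below it for 4. Calls at neighbouring genes are not independent, so the intervals cover counting error only. The lists were chosen with results of these data known, and no list was tested. The interval of the other 17 included 5.08%. For 37 of the 38 lists at least 1 alternative moved the count by more than 1.5 times, mostly the 150 bp limit and the stronger 50% of the peaks.

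Energy metabolism lists held members at several steps. In cytosolic glycolysis 5 of 16 genes had a member, with a median pooled signal of 188. They included ipgm-1, the phosphoglycerate mutase, with 216 in replicate 1 and 154 in replicate 2, ldh-1, lactate dehydrogenase, with 134 and 76.0, aldo-1, an aldolase, with 105 and 97.6, and hxk-3, a hexokinase, with 83.6 and 84.7. In the list of 2-oxoacid dehydrogenase complexes and the TCA cycle it was 5 of 18, with dld-1 far above idh-1, an isocitrate dehydrogenase (116 and 71.0), and fum-1, fumarase (75.1 and 81.5). The vacuolar ATPase, which acidifies lysosomes, had 4 of 18, with vha-14 the highest in the pooled list, at 133 in replicate 1 and 64.6 in replicate 2, and unc-32 at 65.1 and 85.3. The respiratory chain had 5 of 62, led by cox-5B, a share whose interval included 5.08%. The glycolysis count was 2 with the 150 bp limit and 3 with a window of 2000 bp. With the 150 bp limit the count was 2 for the dehydrogenase and TCA list and 1 for the vacuolar ATPase. In the order named, the shares of member genes were 31.2%, 27.8%, 22.2% and 8.06%, beside 5.08% of all genes. Any promoter peak was at 50%, 72.2%, 50% and 56.5% of the genes in these lists, beside 18% of all autosomal coding genes.

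Genes of transcription and chromatin were also among the members. The list of chromatin regulators had 12 of 75, led by met-1, a histone H3 lysine 36 methyltransferase (266 in replicate 1 and 262 in replicate 2), lin-9, of the DRM complex (157 and 135), and swsn-3, of the SWI/SNF complex (111 and 83.9). RNA polymerase and Mediator had 9 of 67. Its name pattern took in its strongest members, the TFIIH kinase cdk-7 named above and cdk-5, a neuronal kinase, which are subunits of neither, beside rpb-11, an RNA polymerase II subunit (124 and 123), and mdt-22, a Mediator subunit (131 and 116). In the list of DNA replication and the cell cycle, 8 of 60 genes had a member. Its highest was cdc-48.1, whose protein has wider roles than the list's name says, and pcn-1, the replication clamp PCNA, had 118 and 86.6. Of the proteasome genes 6 of 33 had a member, with pbs-3, a core subunit, highest at 144 and 111. For chromatin, polymerase and Mediator, replication and proteasome in turn, the shares were 16%, 13.4%, 13.3% and 18.2%, beside 5.08% of all genes. Any promoter peak was at 48%, 47.8%, 51.7% and 78.8% of them, beside 18% of all. Member genes made up 33.3%, 28.1%, 25.8% and 23.1% of those with any promoter peak, beside 28.2% over all genes. These differences were not tested.

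Nuclear hormone receptors, the family of NHR-129, had 27 of 247 autosomal genes among the members, 10.9% (7.62 to 15.4%). Any promoter peak was at 45 of the 247, 18.2%, beside 18% of all autosomal coding genes. Pooled signals of the 27 member genes ran from 67.7 to 609, with a median of 105, below the 127 of all members. The strongest was nhr-58, with 358 in replicate 1 and 254 in replicate 2, followed by nhr-238 (216 and 174), nhr-132 (205 and 140) and nhr-206 (111 and 64.8). The gene nhr-129 itself, on chromosome V, was not among the members. The nearest member, at F32H5.1, lay 27099 bp away. Among other transcription factors 11 of 166 had a member, led by xbp-1 (286 and 266), cebp-2, a C/EBP homologue (305 and 228), and hlh-1, the worm's myogenic regulator (93.0 and 70.0).

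Families of enzymes that modify foreign compounds also held members. Cytochrome P450 genes had 10 of 67, at a median signal of 90.1, with cyp-33C8 far above the rest at 232 in replicate 1 and 209 in replicate 2, and cyp-13A5 next at 74.5 and 48.0. Glutathione transferases, which couple glutathione to toxic compounds, had 6 of 46 at a median of 89.8, led by gst-5 (145 and 127). UDP-glucuronosyltransferases had 7 of 63 at a median of 139, led by ugt-13 (340 and 216). A promoter peak of any class was at 19.4%, 23.9% and 20.6% of the genes of these families in turn, beside 18% of all autosomal coding genes. Neighbouring genes of these families are similar in sequence, so these values are uncertain in the same way as those of the F-box genes.

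In lists of protein synthesis, folding, transport and lipid metabolism the shares ran from 7.41 to 20%, beside 5.08% of all genes. This leaves out the cytosolic ribosomal proteins, described below, at 6.25%. The interval included 5.08% for initiation and elongation factors, aminoacyl-tRNA synthetases, chaperones, ubiquitin conjugation and lipid metabolism, and its lower end stood at 5.46 to 6.42% for the nuclear pore, mitochondrial ribosomal and secretory lists. Mitochondrial ribosomal proteins had 8 of 70, led by mrpl-28. Initiation factors had 3 of 31, led by eif-3.B, a subunit of eIF3 (123 in replicate 1 and 121 in replicate 2), aminoacyl-tRNA synthetases 3 of 31, and elongation factors 1 of 5, eef-1B.2 (168 and 151). Chaperones had 6 of 60, led by dnj-9, a J domain protein (165 and 127). The secretory pathway, led by sec-61.G, had 7 of 54, nuclear pore and transport 5 of 40, and ubiquitin conjugation 4 of 54, led by ubc-3, a ubiquitin-conjugating enzyme (190 and 139). Lipid metabolism had 9 of 110, led by lbp-9, a fatty acid-binding protein (132 and 94.9).

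Some lists reached promoters mainly through peaks of other classes. Of the 80 autosomal genes for cytosolic ribosomal proteins 5 had a member, 6.25% (2.70 to 13.8%). Of the same genes 47 had a peak in a window of both strands, 21 had a 1-strand peak farther upstream, and 72 had some promoter peak. The member count of this list rests on the limit and on the replicate: it was 0 with the 150 bp limit, 20 with the 350 bp limit, and 8 without replicate 2. The member genes were led by rps-17 (261 in replicate 1 and 184 in replicate 2) and rpl-24.2 (190 and 161). The list took in rpl-24.2 by its name, and RefSeq annotates its product as a putative ribosome biogenesis protein. Splicing factors had 3 of 57 with a member and 22 in windows of both strands. Several lists described above likewise had more genes in windows of both strands than member genes. The counts were 19 against 6 for the proteasome, 24 against 5 for the respiratory chain and 20 against 6 for chaperones. They were 17 against 5 for the nuclear pore, 17 against 7 for the secretory pathway and 12 against 3 for initiation factors. Glycolysis (2 against 5) and the vacuolar ATPase (3 against 4) went the other way. Among cytochrome P450 genes 10 of the 13 with any promoter peak were member genes, and among nuclear hormone receptors it was 27 of 45. Over all genes with a promoter peak the share of member genes was 28.2%. These shares were not tested against each other.

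Tissue lists gave small counts, but their shares were not all low. The share was 17.5% for body wall muscle, 13.3% for the list named for the pharynx and 10.3% for the neuronal and synaptic list. These intervals lay wholly above the 5.08% of all autosomal coding genes, with lower ends of 8.75%, 6.91% and 5.29% in turn. For the intestinal list the share was 8.33%, and its interval included 5.08%. The body wall muscle list had 7 of 40, led by unc-89, a giant protein of the M-line (107 and 88.0), and it also took in act-5, the intestinal actin. The neuronal and synaptic list had 8 of 78, led by ric-3, a chaperone of acetylcholine receptors (172 and 84.7), and the intestinal list 4 of 48. The list named for the pharynx had 8 of 60, but the 4 strongest, with pqn-51 first (284 and 330), are pqn genes, named for proteins rich in glutamine and asparagine, which its name pattern took in and which are not pharyngeal markers. No gene of 44 in the epidermis and seam list had a member, with a Wilson interval reaching up to 8.03%. Cilium genes had 1 of 57, namely daf-19, the RFX factor that drives ciliary genes in this worm (99.7 and 79.4), neuropeptides and insulins 1 of 107, germline RNA and argonaute genes 1 of 46 and histones 3 of 76. Chemoreceptor genes had 1 of 1276, collagens 1 of 146, C-type lectins 2 of 237 and F-box genes 7 of 305, and these were the 4 lists whose intervals lay below 5.08%. The F-box list goes by gene name, so F44E7.5, the F-box gene named above, is not counted in it. Without replicate 1 the count was 4 for F-box genes, 1 for C-type lectins and 0 for germline RNA genes, and without replicate 2 it was 2 for chemoreceptors, 2 for collagens and 0 for the cilium.

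**Figure D5:**
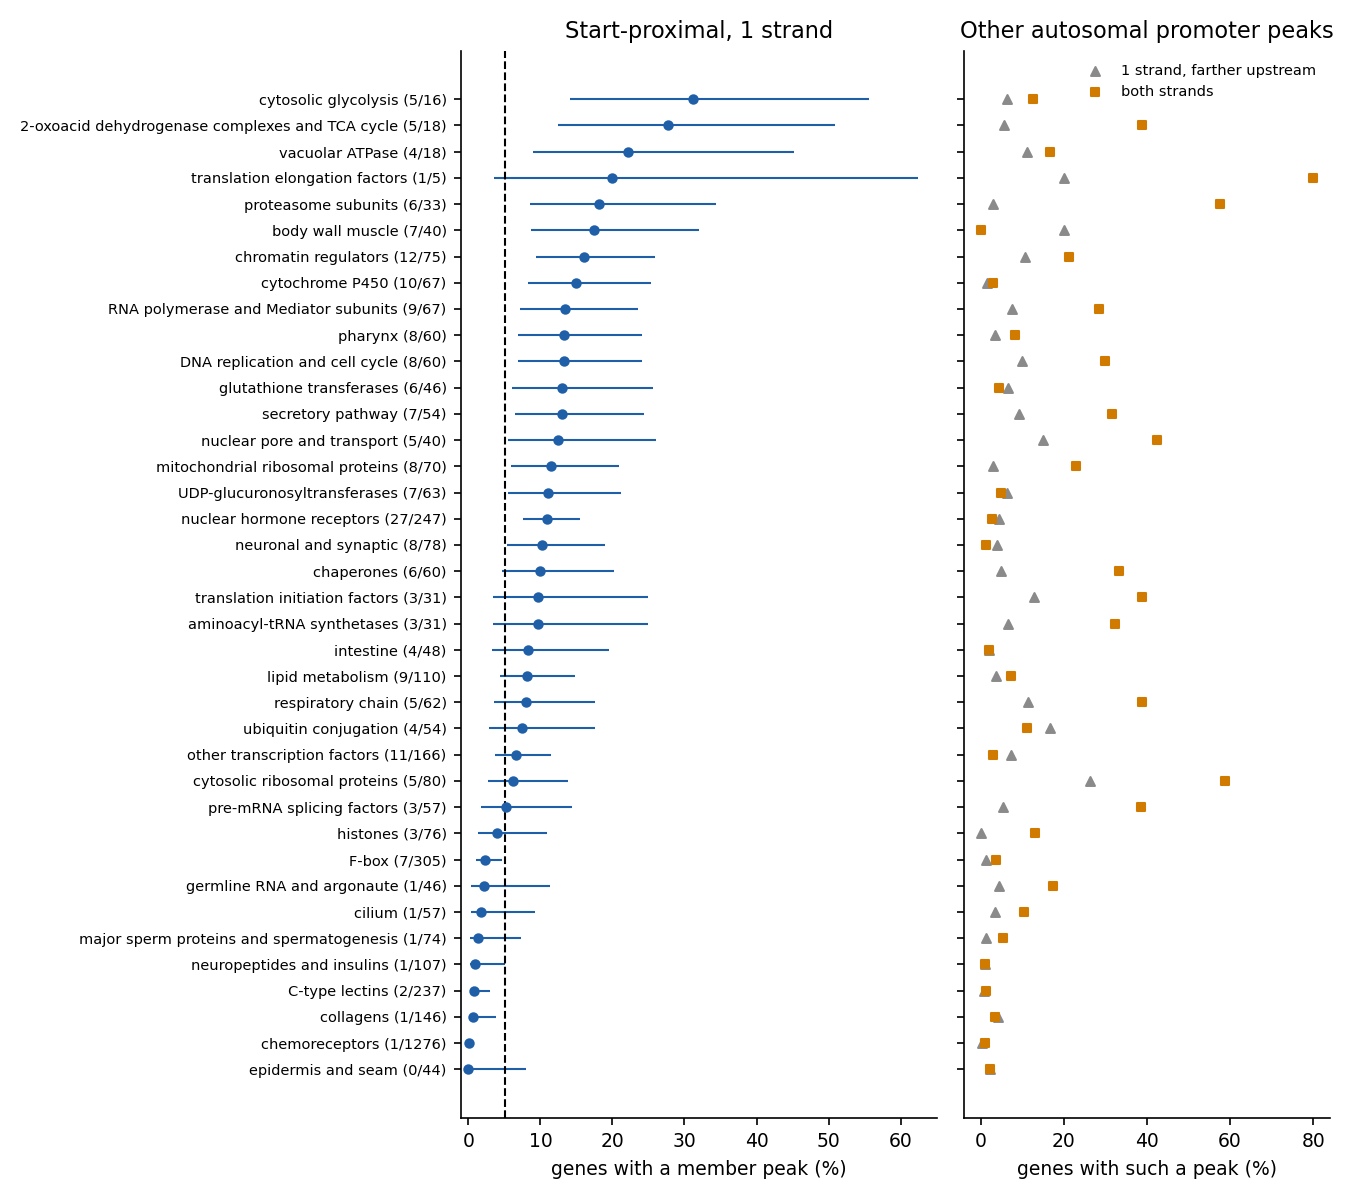
Left, percent of each list's autosomal genes with a member, with 95% Wilson intervals and counts beside the names, and the dashed line at 5.08% for all autosomal coding genes. Right, percent of the same genes with a 1-strand peak farther upstream (triangles) or a peak in a window of both strands (squares). Glycolysis stands highest on the left at 31.2%, and chemoreceptors lie at 0.0784%.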

How the data were processed

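Chromatin immunoprecipitation and sequencing was done on 2 biological replicates of whole larvae. Per the labels, the authors made relaxed peak lists of 30000 calls from replicate 1, from replicate 2 and from the pool, and a list thresholded on reproducibility. Aligner, caller and depth were not given in the sources used here. For each peak the deposited signal is the authors' score with no stated scale, and the deposited −log10 q-value had 1 value at all members. The lists in ce11 were used, and those in ce10 were left out.

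Gene models came from Ensembl release 115 of WBcel235, the assembly also called ce11, and sequence and product names from RefSeq. All calls lay within the chromosome lengths of that reference. The summit is the authors' offset, coordinates are 1-based, and replicate calls were matched by an overlap of 1 bp, taking the strongest. Shares have 95% Wilson intervals and medians 95% order-statistic intervals, which cover counting error only. No test across peaks or genes was made. Alternatives were other distance limits, windows, flanks, transcript starts, merged peaks, stronger peaks and the calls of each replicate alone. Functions were tested on simulated data. Python 3.11.15, numpy 2.4.6, pandas 2.3.3, scipy 1.17.1 and matplotlib 3.10.9 were used.

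The members, lists, motifs and alternatives were chosen with earlier results of these data known. The 8-base element, the limits of the distance classes at 50 and 100 bp, and the singling out of the GA repeat and CGTCTC were chosen after the values were seen. A look at dinucleotide periodicity around the summits was made and not carried on. Genes were named by a rule: the 20 strongest members, up to 4 of each list by signal, the 5 with the largest rank difference, the 3 at each edge of the distance limit, the 3 farthest downstream, the 3 weakest, and nhr-129. One gene that the rule names is not reported here. Genes in the printed sequences followed the order of signal, outside exons and on chromosomes II to V only.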

Additional observations from a re-analysis of the deposited data

How the results depend on the processing

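Of 125 recomputed values of the members' number, signal, position, acceptor share, GC content and leading motifs, 102 stayed within the interval of the main value, or within 1.5 times it for a count, and 23 moved. With a distance limit of 150 bp there were 574 members at 573 genes, with a median pooled signal of 118, the summit upstream of the start in 82.1% and within 100 bp of it in 66.6%, and the acceptor in 11.8%. With 350 bp these shares were 90.7%, 34.6% and 21.1%. With only the stronger 50% of the peaks there were 460 members at 458 genes, with a call in both replicates at 99.8%, a median signal of 184, GC content of 45.5%, the summit within 100 bp in 40.0%, and the acceptor in 1.01% of starts with the summit no more than 50 bp upstream. A call in both replicates was found for 96.5% of members when summits had to lie within 100 bp, and for 98.0% when 50% of the peak had to overlap. In a window reaching 100 bp to each side GC content was 40.3%, and the shares of the GA repeat, CGTCTC and the 8-base element were 40.6%, 28.0% and 18.3%. With flanks 600 bp away the flank share of the 8-base element was 0.739%. Another limit, fewer peaks or a longer window changes what is counted, and the part of this in the moved values was not tested.

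Starts of transcripts in place of genes, merged peaks, and windows of 500 or 2000 bp moved none of these values. Taking the strongest calls of replicate 1 or of replicate 2 alone gave 835 to 891 members, an acceptor share of 17.3 to 18.7%, and 3.00 to 3.05% for the starts nearest the summit. For the gene lists, 262 of 342 recomputed counts stayed within 1.5 times the count given, 64 were lower and 16 higher, with 23 of the lower ones under the 150 bp limit and 26 among the stronger peaks. Among shares of the other motifs 173 of 198 stayed within their interval, and 17 of the 25 that moved did so in the longer window. No paired analysis was possible because there is 1 group. Without read depths, a gene with no member cannot be told from one with a weak peak.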

Other observations

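A pair of other 8-letter words among the 10 with the largest excess at member summits over flanks differed between promoter and non-promoter peaks in these lists. AAACGCGC, on either strand, was in 50 members, 5.68% (4.34 to 7.41%), in 6.08% of peaks in windows of both strands, and in 0.627% (0.418 to 0.939%) of the 3670 peaks in no promoter window. GCAAACAC was in 51 members, 5.80% (4.44 to 7.54%), and in 1.01% (0.732 to 1.39%) of peaks in no promoter window. Its share was 9.53% at peaks in windows of both strands, 3.26% at upstream peaks and 3.44% at promoter peaks on X. The GA repeat was in 27.7% of members, in 17.5% of peaks in windows of both strands, and in 32.1% of peaks in no promoter window. At upstream peaks and at promoter peaks on X its share was 29.8% and 30.02%, close to that of peaks in no promoter window. These words were picked after the values were seen, the differences were not tested, and the part of base composition in them was not tested.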
